A study of Mus musculus with 6 samples.

Results

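Transcripts of the voltage-gated sodium and calcium channels were compared between VMHpvlm and VMHpvll, the captured parts of the ventrolateral ventromedial hypothalamus (VMH), in female mice. The members were all rows of the deposited table whose symbol was Scn with a number and at most 1 of the letters a, b or m, all rows starting with Cacn, and Nalcn, which gave 40 of 47480 rows. They comprised 9 pore-forming and 4 auxiliary sodium channel subunits, 10 pore-forming calcium channel subunits, 4 alpha2delta, 4 beta and 8 gamma subunits, and the leak channel Nalcn. The sodium channel gene Scn2a stood in the table under its older symbol Scn2a1, which the pattern did not match. It is therefore not counted as a member, and its values are given only where shares of the family need it.

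All libraries came from VgluT2-cre/Ai6 female mice, so the cre driven by the glutamate transporter gene VgluT2 (Slc17a6) and the Ai6 fluorescent reporter were shared by both groups. The areas were cut from frozen coronal brain sections by laser capture microdissection, and total RNA was sequenced. Each region had 3 libraries, called F19, F20 and KH_161103 here after the part of the title that both regions share. The KH_161103 titles were KH_161103_C for VMHpvlm and KH_161103_D for VMHpvll. They name no region, so that pairing is inferred from the shared part. Library values below are given in the order F19, F20 and KH_161103. No source used here gives the age of the animals, how many went into a library or how the borders of the areas were set. A captured area holds every cell type within its borders, and in such bulk samples fewer cells of a type and less RNA per cell cannot be told apart.

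Voltage-gated sodium channels open when a neuron depolarises and carry the rising phase of the action potential; a single large alpha subunit forms the pore and small beta subunits adjust its gating and place in the membrane. Voltage-gated calcium channels turn depolarisation into calcium entry for transmitter release, burst firing and signalling to the nucleus. Their alpha1 subunit forms the pore, while alpha2delta and beta subunits bring the high-voltage-activated types to the membrane. T-type channels open near the resting potential and support rebound bursts. NALCN is a sodium leak channel that helps set the resting potential.

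Levels are normalised read counts: the reads of a gene over the size factor of its library. Recovered depth ran from 7157831 to 11293159 reads per library. A gene was tested if its mean over the 6 libraries was at least 10, and was called at a limma Benjamini-Hochberg adjusted p below 0.05 with the library name as a pair block. Each log2 difference is the VMHpvlm level minus the VMHpvll level after taking log2(value + 1), a scale that understates the change of a low gene. Folds compare the means of normalised counts. Of the 40 members, 34 passed the filter and 6 did not.

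The families divided between the regions rather than moving one way. Of the 34 tested members, 13 were higher in VMHpvlm and 8 in VMHpvll, beside 10.5% and 9.48% of all 14522 tested genes. These counts were 38.2% and 23.5% of the tested members. The median log2 difference of the tested members was 0.10, against 0.00247 over all tested genes. Among 15 pan-neuronal marker genes, 40% were called toward VMHpvlm and 0 toward VMHpvll, with a median log2 difference of 0.08. The share of members called toward VMHpvlm and their median were thus near those of general neuronal genes. The values of the regions did not overlap for 15 members that were above in VMHpvlm and 9 that were above in VMHpvll, beside 14.5% and 13.5% of all tested genes. Scn8a, Scn1a, Scn7a, Cacna1c, Cacna1d, Cacna1e, Cacna2d1, Cacna2d3, all 4 calcium channel beta subunits and Cacng2 were higher in VMHpvlm. Scn11a, Scn2b, Scn3b, Scn4b, Cacna1g, Cacna2d2 and Cacng4 were among those higher in VMHpvll.

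The choice of variance model limited how many of these calls stood. With 3 pairs, each gene kept 2 residual degrees of freedom, so each p-value leans on the spread of other genes at a similar level. When the variance prior was fitted without trend or robust weighting, Scn4b, Cacna1g and Cacna2d1 were still called (adjusted p = 0.0270, 0.0497 and 0.0380 by limma with Benjamini-Hochberg adjustment), and the other 18 called members were not. That fit called 1.30% and 1.60% of all genes toward VMHpvlm and VMHpvll. DESeq2 on the recovered reads called 10 members toward VMHpvlm and 5 toward VMHpvll, beside 4.46% and 4.01% of all genes. Without the replicate block, limma called 13 and 6 members, beside 6.45% and 5.94%. Of the 21 called members, 15 were called in each of the other 14 settings tried.

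**Figure D1:**
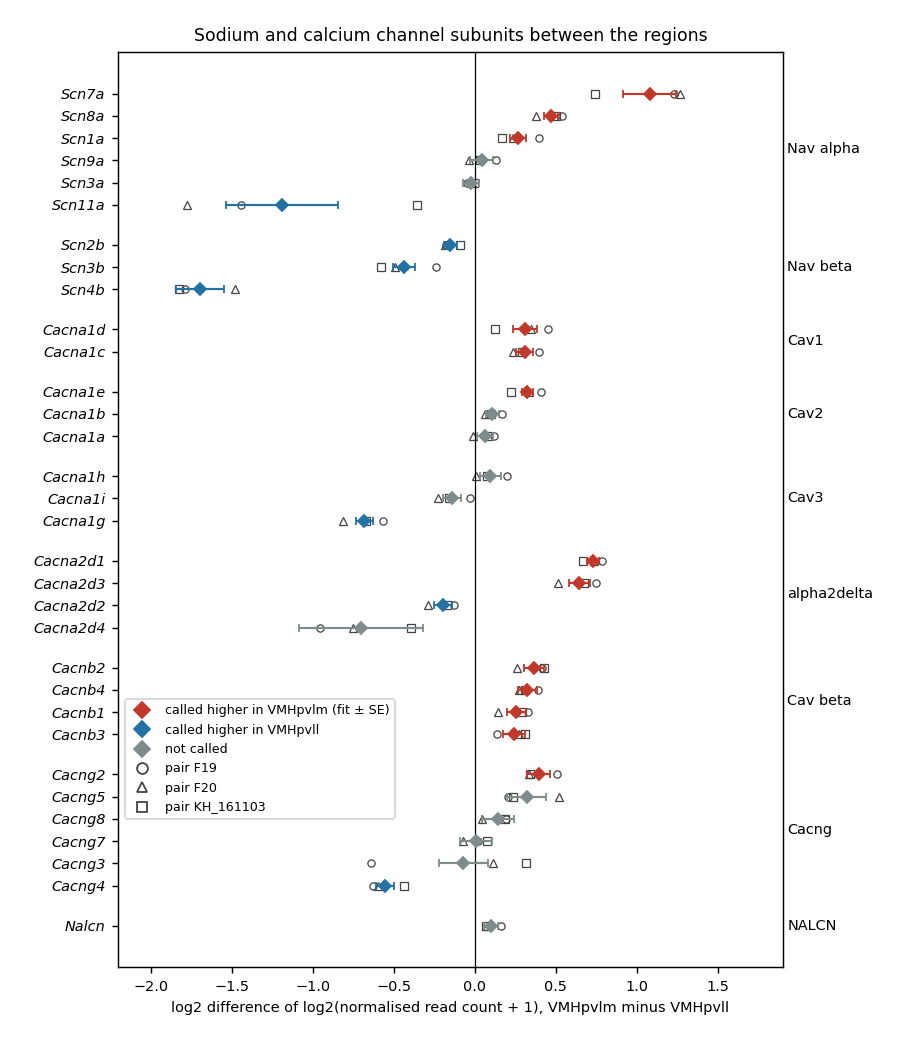
Fitted log2 difference (VMHpvlm minus VMHpvll, diamonds with SE) of tested members, grouped by subfamily, with the difference within each pair of libraries as open symbols. Red members were called higher in VMHpvlm and blue members higher in VMHpvll, and all 4 calcium channel beta subunits lie to the right of 0.

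Among the pore-forming sodium channels, the axonal channel Scn8a and its relatives Scn1a and Scn7a were higher in VMHpvlm, whereas Scn11a was higher in VMHpvll. Scn8a, the main sodium channel of mature axon initial segments and nodes, was at 2630.3, 2784 and 2781 in VMHpvlm and at 1812, 2145 and 1966 in VMHpvll. Each VMHpvlm library was above each VMHpvll library, a 1.38-fold difference (log2 difference 0.47 ± 0.04 SE, limma Benjamini-Hochberg adjusted p = 6.88e-12). Scn1a, best known from fast-spiking interneurons and from epilepsy, was at 1631, 1728 and 1463 in VMHpvlm and at 1240.0, 1465 and 1301 in VMHpvll. Its regions overlapped, since the F20 library of VMHpvll (1465) lay just above the KH_161103 library of VMHpvlm (1463), but it was higher in VMHpvlm within each pair (log2 difference 0.27 ± 0.05 SE, limma Benjamini-Hochberg adjusted p = 6.41e-05). Scn7a, a divergent channel that senses extracellular sodium, was low at 141, 137 and 123 in VMHpvlm and at 59.4, 56.6 and 73.0 in VMHpvll. It was 2.12-fold higher in VMHpvlm with no overlap (log2 difference 1.08 ± 0.16 SE, limma Benjamini-Hochberg adjusted p = 1.05e-06).

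Scn11a, a channel known from pain-sensing neurons, was at 27.5, 35.7 and 24.6 in VMHpvll and at 9.48, 9.72 and 19.1 in VMHpvlm. Its regions did not overlap, but the difference between the KH_161103 libraries (-0.35) was far smaller than that between the F19 (-1.44) and F20 libraries (-1.78). The fit gave -1.19 ± 0.35 SE (limma Benjamini-Hochberg adjusted p = 0.00976). The call was lost by DESeq2 (adjusted p = 0.245) and by limma without F19 (0.0598) or without F20 (0.118), and the adjusted p ran from 0.00351 to 0.245 over the 14 alternatives that tested it, its mean being under 50.

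Scn3a, most abundant in developing brain, was at 1505, 1560.2 and 1611 in VMHpvlm and at 1555, 1576 and 1619.5 in VMHpvll and was not called (log2 difference -0.02 ± 0.05 SE, limma Benjamini-Hochberg adjusted p = 0.804). Scn9a, known from sensory and hypothalamic neurons, was at 554, 509 and 478 in VMHpvlm and at 507, 523 and 467 in VMHpvll and was not called (log2 difference 0.04 ± 0.07 SE, limma Benjamini-Hochberg adjusted p = 0.764). Both pairs of ranges overlapped. Scn2a1, the most abundant sodium channel per length and outside the member rule, was at 7319, 8091 and 8006 in VMHpvlm and at 7268, 7865 and 7832 in VMHpvll and was not called (log2 difference 0.03, limma Benjamini-Hochberg adjusted p = 0.606). The muscle channel Scn4a had at most 3 reads in any library, and Scn10a, a channel of sensory neurons, at most 11. Neither passed the filter on low values.

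Most pore-forming sodium channel genes stand in clusters. On mm10, Scn11a lies on chromosome 9 from 119753759 to 119825456, and Scn10a lies 34.4 kb before it. Scn10a was at 8.79, 5.96 and 10.04 in VMHpvll and at 4.06, 1.39 and 0.908 in VMHpvlm, so that both genes were higher in VMHpvll within each pair, of which Scn10a was not tested. In the cluster on chromosome 2, Scn3a, Scn2a1, Scn1a, Scn9a and Scn7a stand in that order between 65457118 and 66784914. There Scn1a and Scn7a were higher in VMHpvlm and the other 3 were not called. Scn8a stands alone on chromosome 15 from 100869858 to 101045938. GENCODE gives protein-coding as the type of all 40 members.

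Of the auxiliary beta subunits of sodium channels, Scn4b, Scn3b and Scn2b were higher in VMHpvll, and Scn4b had the largest log2 difference of all called members. Scn4b, whose cytoplasmic tail is known to permit resurgent sodium current in fast-firing neurons, was at 218, 156 and 199 in VMHpvll and at 62.3, 55.5 and 55.4 in VMHpvlm. The lowest VMHpvll library was well above the highest of VMHpvlm, and the means differed 3.31-fold (log2 difference -1.70 ± 0.15 SE, limma Benjamini-Hochberg adjusted p = 2.07e-12). Scn3b was at 742, 838 and 903 in VMHpvll and at 629.8, 597 and 603 in VMHpvlm and was 1.36-fold higher in VMHpvll without overlap (log2 difference -0.44 ± 0.07 SE, limma Benjamini-Hochberg adjusted p = 1.62e-06). Both are single-pass membrane proteins with an immunoglobulin-like domain outside the cell.

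Scn2b, which is bonded to the alpha subunit by a disulfide bridge, was at 3145, 2742 and 2659 in VMHpvll and at 2781, 2418 and 2494 in VMHpvlm. The regions overlapped, but each pair was higher in VMHpvll (log2 difference -0.15 ± 0.04 SE, limma Benjamini-Hochberg adjusted p = 0.00528). That call was lost without the replicate block (limma adjusted p = 0.187), with a random pair effect (0.0515), by DESeq2 (0.112) and without the F19 pair (0.0714), and the adjusted p ran from 4.48e-06 to 0.283 over the 15 alternatives. Scn2b and Scn4b are neighbours on chromosome 9, 8.32 kb apart, at 45117782 to 45130070 and 45138395 to 45154152 on the plus strand. Their differences were of unequal size, -0.15 and -1.70.

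Among the calcium channel pores, the L-type genes Cacna1c and Cacna1d and the R-type gene Cacna1e were higher in VMHpvlm, and the T-type gene Cacna1g was higher in VMHpvll. The median log2 difference was 0.31 over 2 tested L-type pores, 0.11 over the 3 P/Q-, N- and R-type pores and -0.14 over the 3 T-type pores. Cacna1e, the R-type pore, was at 6561, 6112 and 6048 in VMHpvlm and at 4940.1, 4840.1 and 5172 in VMHpvll. The regions did not overlap and the fold was 1.25 (log2 difference 0.32 ± 0.04 SE, limma Benjamini-Hochberg adjusted p = 6.64e-10). Cacna1c, the main L-type pore of brain and heart, was at 1296, 1253 and 1281 in VMHpvlm and at 986, 1062 and 1047 in VMHpvll, without overlap (log2 difference 0.31 ± 0.05 SE, limma Benjamini-Hochberg adjusted p = 1.56e-05). Cacna1d, an L-type pore that opens at lower voltages and supports pacemaking, was at 661, 532 and 529.5 in VMHpvlm and at 483, 417 and 485 in VMHpvll. It was called with all pairs (log2 difference 0.31 ± 0.07 SE, limma Benjamini-Hochberg adjusted p = 0.00167), but not by DESeq2 (adjusted p = 0.117) or without the F19 pair (limma Benjamini-Hochberg adjusted p = 0.0620), and the adjusted p ran from 5.27e-04 to 0.172 over the 15 alternatives.

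Cacna1g, a T-type pore that drives low-threshold bursts, was at 1689.5, 1639.7 and 1691 in VMHpvll and at 1143, 933 and 1063 in VMHpvlm. Every VMHpvll library stood above every VMHpvlm library, and the fold toward VMHpvll was 1.60 (log2 difference -0.68 ± 0.05 SE, limma Benjamini-Hochberg adjusted p = 3.40e-14). The other T-type pores were not called. Cacna1i was at 1104, 1119.9 and 1121 in VMHpvll and at 1079, 956 and 1004 in VMHpvlm, with no overlap but a small difference that was not called (log2 difference -0.14 ± 0.06 SE, limma Benjamini-Hochberg adjusted p = 0.0696). It was called by edgeR (0.0422), with libraries scaled to the upper quartile (0.0423) or to neuronal genes (7.95e-04), and without the F19 pair (0.0403), each time toward VMHpvll, and the adjusted p ran from 7.95e-04 to 0.462 over the 15 alternatives. Cacna1h was at 809.9, 669 and 715 in VMHpvlm and at 706, 664 and 677 in VMHpvll and was not called (log2 difference 0.10 ± 0.06 SE, limma Benjamini-Hochberg adjusted p = 0.340).

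The main pores of presynaptic calcium entry were not called. Cacna1a, the P/Q-type pore, was at 1304, 1348 and 1329 in VMHpvlm and at 1201, 1355 and 1255 in VMHpvll and was not called (log2 difference 0.06 ± 0.05 SE, limma Benjamini-Hochberg adjusted p = 0.437). Cacna1b, the N-type pore, was at 2255, 2435 and 2652 in VMHpvlm and at 2009, 2332 and 2478 in VMHpvll and was higher in VMHpvlm in each pair without being called (log2 difference 0.11 ± 0.04 SE, limma Benjamini-Hochberg adjusted p = 0.0645). Cacna1b was called with libraries scaled to the same total (adjusted p = 0.0322 by limma with Benjamini-Hochberg adjustment) and without the F20 pair (0.0421), and the adjusted p ran from 0.0322 to 0.923 over the 15 alternatives. The skeletal muscle pore Cacna1s had 1 to 12 reads per library and the retinal pore Cacna1f 0 to 7. Both were under the filter.

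**Figure D2:**
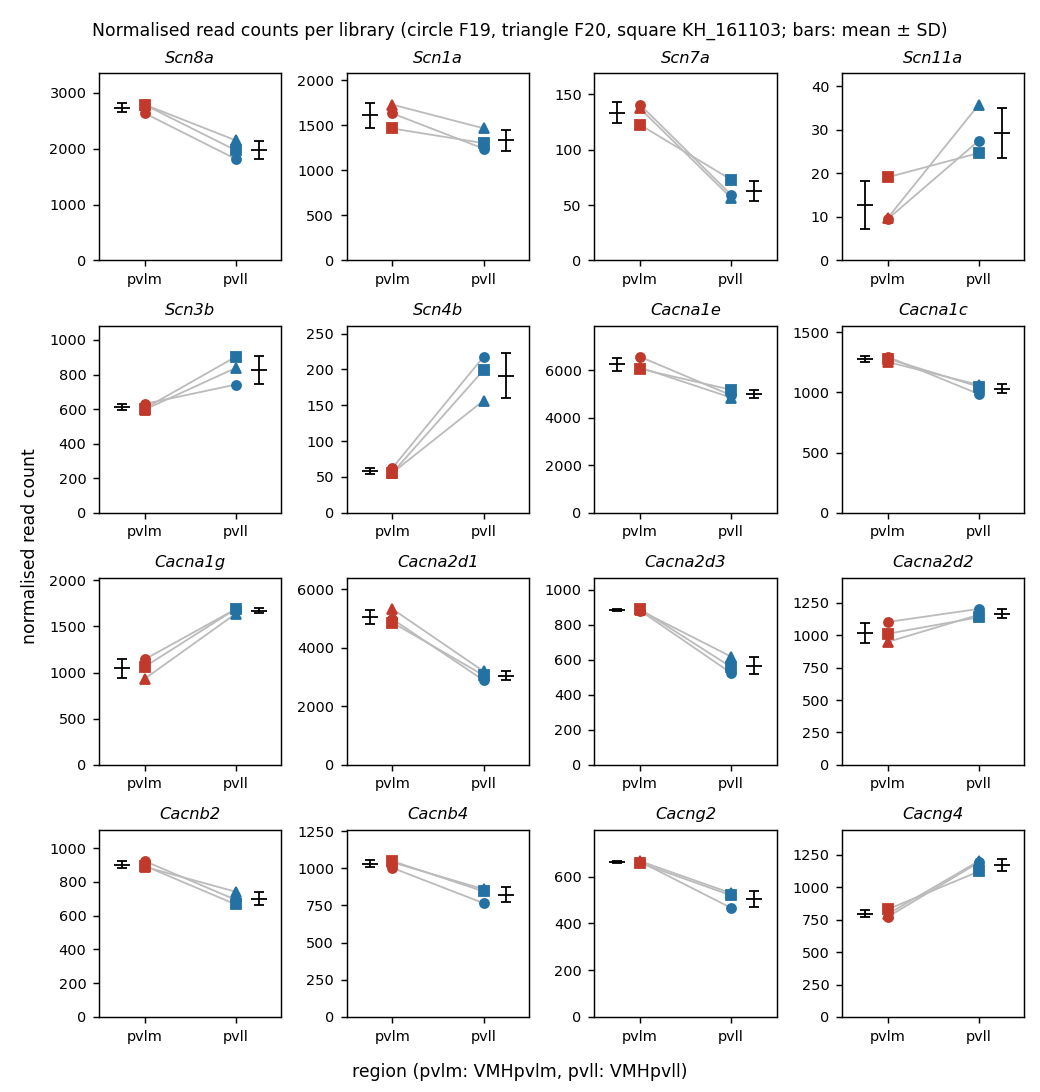
Normalised read count of 16 called members in each library, with a symbol for each library name, grey lines joining libraries of the same name and a black bar for each mean with its SD (n = 3). Scn4b, Cacna1g, Scn11a, Scn3b and Cacng4 are higher in VMHpvll in all 3 pairs, and Scn8a, Cacna1e and Cacna2d1 are higher in VMHpvlm in all 3 pairs.

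The alpha2delta subunits are extracellular proteins that carry calcium channels to the surface. Of 4, Cacna2d1 and Cacna2d3 were higher in VMHpvlm and Cacna2d2 in VMHpvll, with a median log2 difference of 0.22. Cacna2d1, the main target of gabapentin, was at 4986, 5334 and 4867 in VMHpvlm and at 2894, 3200.4 and 3064 in VMHpvll. It had the smallest adjusted p of all members, with a 1.66-fold higher level in VMHpvlm and no overlap (log2 difference 0.73 ± 0.04 SE, limma Benjamini-Hochberg adjusted p = 4.26e-20). Cacna2d3 was at 882, 883 and 891 in VMHpvlm and at 524, 618 and 559 in VMHpvll, also without overlap, and its VMHpvlm libraries lay close together (log2 difference 0.64 ± 0.06 SE, limma Benjamini-Hochberg adjusted p = 7.36e-11). Cacna2d2 went the other way at 1204, 1159 and 1139 in VMHpvll and at 1103, 948 and 1012 in VMHpvlm, also without overlap (log2 difference -0.20 ± 0.05 SE, limma Benjamini-Hochberg adjusted p = 0.00664). Its call was lost without the replicate block (adjusted p = 0.0732 by limma), by DESeq2 (0.158), without the F20 pair (0.0758) and without the KH_161103 pair (0.0577), and the adjusted p ran from 2.95e-05 to 0.225 over the 15 alternatives. Cacna2d4, known from retina, was at 22.0, 19.4 and 14.6 in VMHpvll and at 10.8, 11.1 and 10.9 in VMHpvlm and was not called (log2 difference -0.70 ± 0.38 SE, limma Benjamini-Hochberg adjusted p = 0.223).

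Because Cacna2d1 and Cacna2d3 were both higher in VMHpvlm, the sequence before their start sites is shown, with that of Scn8a, which was higher in VMHpvlm too. The windows are the 250 bases before the RefSeq start on GRCm38.p6, and those shown hold no GENCODE M21 exon. Capitals mark the Sp1 GC box, GGGCGG on either strand, where overlapping matches run together.
Cacna2d1, chr5:15934441-15934690, plus strand: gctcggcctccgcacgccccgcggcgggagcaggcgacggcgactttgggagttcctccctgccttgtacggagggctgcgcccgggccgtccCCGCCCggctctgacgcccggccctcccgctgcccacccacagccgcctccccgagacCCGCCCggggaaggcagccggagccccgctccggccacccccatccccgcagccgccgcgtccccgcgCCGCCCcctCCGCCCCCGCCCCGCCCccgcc
Cacna2d3, chr14:29721865-29722114, minus strand: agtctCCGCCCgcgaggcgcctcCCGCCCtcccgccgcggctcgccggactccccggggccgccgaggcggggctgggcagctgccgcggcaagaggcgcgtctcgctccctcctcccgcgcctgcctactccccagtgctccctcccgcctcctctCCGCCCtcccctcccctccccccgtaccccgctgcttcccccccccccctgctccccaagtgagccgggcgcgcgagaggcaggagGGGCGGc
Scn8a, chr15:100870395-100870644, plus strand: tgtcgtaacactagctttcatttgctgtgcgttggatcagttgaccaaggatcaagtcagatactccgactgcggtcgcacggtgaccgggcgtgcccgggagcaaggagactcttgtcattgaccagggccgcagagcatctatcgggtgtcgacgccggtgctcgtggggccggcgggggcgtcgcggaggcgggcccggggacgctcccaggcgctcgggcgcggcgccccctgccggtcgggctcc

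The Cacna2d1 window held 6 GC boxes, that of Cacna2d3 4 and the Scn8a window shown 0, with 82.4%, 80.0% and 68.0% G or C. The median was 56.8% over the windows of members and 52.4% over all windows. Whether G or C content goes with the direction of a member was not tested. The Scn8a window lies inside the gene as GENCODE places it, from 100869858. A further Scn8a window, at 100936021 to 100936270, held 0 GC boxes too. Of 40 windows of 250 bases found for 30 members, 15 held a GC box, beside 32.7% of all 32851 windows in the table. Some of the 40 overlap GENCODE exons, and those of Cacna1e and Cacng2, for example, consist wholly of exon bases. The site of SF-1, the protein of the VMH gene Nr5a1, was searched as CAAGGTCA and was in none of the 40, beside 1.33% of all windows. The palindromic oestrogen response element, whose GGTCA arm the SF-1 site also holds, was in none, beside 0.0639%. The RE1 site of the repressor REST (0.00913% of all windows) and the cAMP response element (TGACGTCA, 1.55%) were in none either. A TATA box (TATAAA, 12.4%) was in 1, a Cacna1d window that consists wholly of exon bases. All motifs were searched on both strands.

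All 4 beta subunits of calcium channels, cytoplasmic proteins that bind the pore and promote its delivery to the membrane, were higher in VMHpvlm, by 1.18 to 1.29 fold, with a median log2 difference of 0.29. Cacnb2 was at 924, 889.7 and 896 in VMHpvlm and at 694, 742 and 666 in VMHpvll (log2 difference 0.37 ± 0.06 SE, limma Benjamini-Hochberg adjusted p = 7.82e-06). Cacnb4, the subunit mutated in lethargic mice, was at 1002, 1039.7 and 1048 in VMHpvlm and at 765, 859 and 844 in VMHpvll (log2 difference 0.33 ± 0.06 SE, limma Benjamini-Hochberg adjusted p = 2.08e-05). The exons of A430018G15Rik, on the opposite strand, cover 16.0% of the Cacnb4 exon bases, and those of 3 antisense genes cover 7.32% of the Cacnb2 exon bases. Whether strand was used in counting is not stated in the labels or processing notes, and without it reads over such bases cannot be assigned to 1 gene.

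Cacnb1 was at 910.2, 956 and 1009 in VMHpvlm and at 724, 865 and 823 in VMHpvll (log2 difference 0.26 ± 0.06 SE, limma Benjamini-Hochberg adjusted p = 0.00103). Cacnb3 was at 677, 707 and 781 in VMHpvlm and at 614, 584 and 629.9 in VMHpvll (log2 difference 0.24 ± 0.07 SE, limma Benjamini-Hochberg adjusted p = 0.00536). For none of the 4 genes did a VMHpvll library reach the lowest VMHpvlm library. Scaling the libraries to 15 neuronal genes ended the calls of Cacnb1 (log2 difference 0.15, limma Benjamini-Hochberg adjusted p = 0.0522) and Cacnb3 (0.14, 0.124). The adjusted p of Cacnb1 ran from 6.94e-05 to 0.165 over the 15 alternatives, and that of Cacnb3 from 0.00212 to 0.186 over the 15 alternatives. DESeq2 did not call them either (0.0750 and 0.186), nor did limma call Cacnb3 without the KH_161103 pair (0.132).

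The Cacng genes are named as gamma subunits, but most encode auxiliary proteins of AMPA-type glutamate receptors (TARPs). Of 6 tested, 1 (16.7%) was called in each direction, beside 10.5% of all tested genes toward VMHpvlm and 9.48% toward VMHpvll. With so few genes these shares do not set the family apart. Its median log2 difference was 0.07. Cacng2, which encodes stargazin, was at 664, 666 and 658 in VMHpvlm and at 466, 529 and 519 in VMHpvll. It was 1.31-fold higher in VMHpvlm with no overlap (log2 difference 0.39 ± 0.07 SE, limma Benjamini-Hochberg adjusted p = 2.04e-05). Cacng4 was at 1192, 1202 and 1122 in VMHpvll and at 771, 793 and 829 in VMHpvlm, 1.47-fold higher in VMHpvll with no overlap (log2 difference -0.55 ± 0.06 SE, limma Benjamini-Hochberg adjusted p = 1.61e-10). The exons of the antisense gene A730060N03Rik cover 5.86% of the Cacng2 exon bases.

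Cacng5, next to Cacng4 on chromosome 11, pointed the other way at 194, 205 and 184 in VMHpvlm and at 168, 143 and 156 in VMHpvll. It missed the threshold narrowly (log2 difference 0.32 ± 0.12 SE, limma Benjamini-Hochberg adjusted p = 0.0500001) and was called with a random pair effect (0.0428), a pseudocount of 5 (0.0497), a filter at a mean of 50 (0.0403) and scaling to the same total (0.0318), and the adjusted p ran from 0.0318 to 0.497 over the 15 alternatives. Cacng8, a forebrain TARP, was at 261, 257 and 267 in VMHpvlm and at 229, 249 and 235 in VMHpvll and was not called (log2 difference 0.14 ± 0.10 SE, limma Benjamini-Hochberg adjusted p = 0.370). Cacng7 was at 241, 221 and 307 in VMHpvlm and at 237, 232 and 291 in VMHpvll and was not called either (log2 difference 0.01 ± 0.10 SE, limma Benjamini-Hochberg adjusted p = 0.973). Cacng3 was at 94.8, 129 and 149 in VMHpvlm and at 148, 119 and 119.6 in VMHpvll, with the F19 pair on the opposite side of the other pairs (log2 difference -0.07 ± 0.15 SE, limma Benjamini-Hochberg adjusted p = 0.813). Cacng1, the gamma subunit of skeletal muscle, and Cacng6 had at most 1 and 4 reads in any library and were under the filter. Without a filter on low values, 0 of the 6 members under it were called by limma, and 2 of them, Cacna1s and Scn10a, had an unadjusted p below 0.05 (0.00680 and 0.00647). That fit called 5.25% of all genes toward VMHpvlm and 4.76% toward VMHpvll.

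Nalcn was at 2282, 2303 and 2322 in VMHpvlm and at 2040.2, 2189 and 2209 in VMHpvll. The regions did not overlap, the fold was 1.07 and the gene was not called (log2 difference 0.10 ± 0.04 SE, limma Benjamini-Hochberg adjusted p = 0.0924). It was called toward VMHpvlm when the libraries were scaled to the same total (adjusted p = 0.0485 by limma, and the adjusted p ran from 0.0485 to 0.988 over the 15 alternatives). Its channel works in a complex with UNC79, UNC80 and FAM155A. Unc80 was at 8116, 8019 and 8023 in VMHpvlm and at 6607, 6833 and 6801 in VMHpvll, a called difference (log2 difference 0.26 ± 0.03 SE, limma Benjamini-Hochberg adjusted p = 1.35e-08). Fam155a was higher in VMHpvlm too (log2 difference 0.26 ± 0.06 SE, limma Benjamini-Hochberg adjusted p = 6.52e-04), and Unc79 was not called (log2 difference 0.14 ± 0.06 SE, limma Benjamini-Hochberg adjusted p = 0.0889).

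Other partner genes of the channels were mostly higher in VMHpvlm where they were called. Over all tested genes, 10.5% were called toward VMHpvlm and 9.48% toward VMHpvll. Of 15 pan-neuronal markers, 6 (40%) were called toward VMHpvlm and 0 toward VMHpvll, so such a pattern was not particular to the partners. Of 12 partners of sodium channels, 5 (41.7%) were higher in VMHpvlm, with a median log2 difference of 0.14 over the list. Those with the smallest p were Ank3, the ankyrin that anchors sodium channels at the axon initial segment (0.39), Ank2 (0.29), Fgf13 (0.36) and the spectrin Sptbn4 (0.24), all as log2 differences. In VMHpvll, 0 of them were higher by limma, edgeR or DESeq2, and 1 had an unadjusted p below 0.05 by limma. Of 15 tested partners of calcium channels, 6 (40%) were higher in VMHpvlm and 2 (13.3%, near the share of all genes) in VMHpvll, with a median of 0.12. Those named by their p are the active zone gene Rims2 (0.24), Akap5, an anchor of kinases near L-type channels (-0.74, higher in VMHpvll), and Stac2 (0.73). Fewer partners were called by DESeq2, beside 4.46% and 4.01% of all genes. Toward VMHpvlm it called 1 NALCN partner, 4 sodium channel partners, 3 calcium channel partners and 3 of the pan-neuronal markers. Toward VMHpvll it called 1 calcium channel partner.

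Levels of different subunits were compared per kb of exon, taken as the union of a gene's GENCODE exons. The order depends on this choice of length. The exon union of Cacna2d1 has 12416 bases and its longest transcript 7436, whereas Scn2b has 4656 by both. Their coding lengths are 3309 and 645 bases. The longest transcript would raise Cacna2d1 relative to Scn2b, whereas the coding length would lower it. Ranks by other lengths were not computed. By exon union, Scn2b was the most abundant member in both regions, at 551 ± 41.1 normalised reads per kb in VMHpvlm and 612 ± 55.8 in VMHpvll (SD, n = 3 libraries). In VMHpvlm, Cacna2d1 followed at 408 ± 19.6. In VMHpvll, Cacng4 followed at 328 ± 12.2, and Cacna2d1 stood at 246 ± 12.3. Scn4b was low in both, at 38.3 ± 6.31 in VMHpvll and 11.6 ± 0.793 in VMHpvlm.

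**Figure D3:**
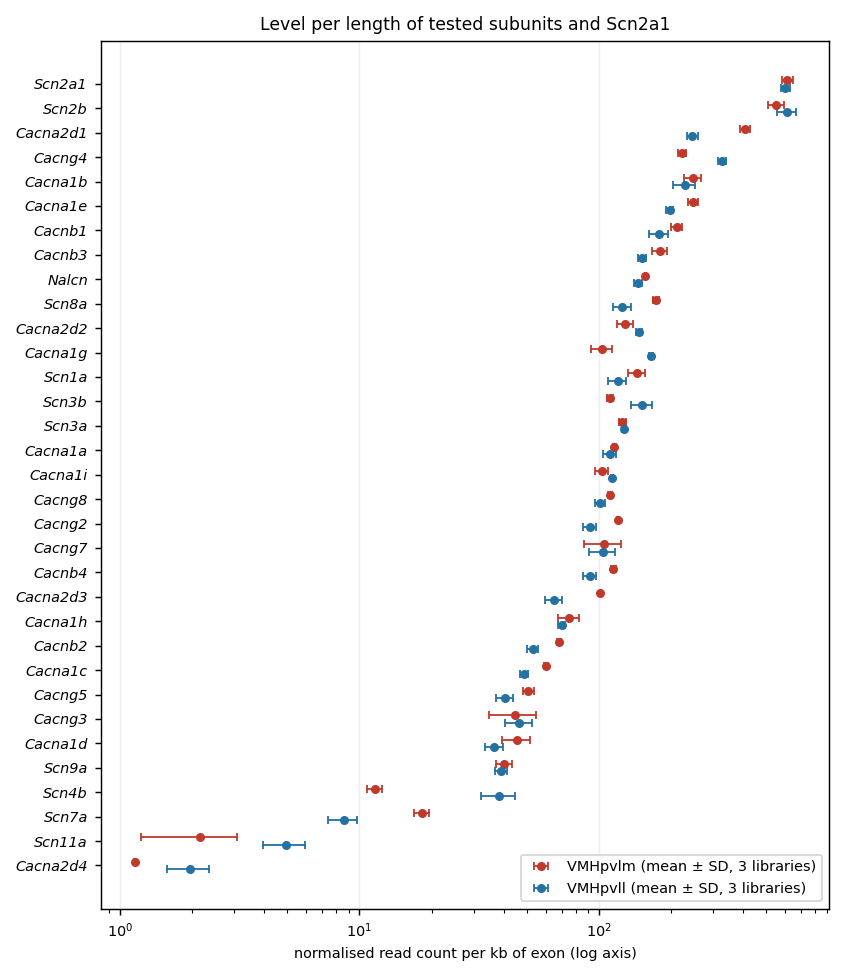
Normalised read count per kb of exon (log axis) of tested members and Scn2a1 in each region, as mean and SD of 3 libraries. Scn2b and Scn2a1 stand at the top and Cacna2d4 and Scn11a at the bottom, and Cacna2d1, Cacng4, Cacna1g and Scn4b show the regions apart.

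The mix of subunits within a family does not depend on the scaling of the libraries, but it does depend on the length taken for each gene. It was described per library, without a test. Scn2a1 made up 50.6% ± 1.22 of the sodium channel pores in VMHpvlm and 51.8% ± 0.211 in VMHpvll, with the VMHpvll libraries just above and no overlap. Scn8a took 14.3% ± 0.132 against 10.8% ± 0.524, also without overlap. Scn4b was 1.15% ± 0.0229 of the beta subunits in VMHpvlm and 3.42% ± 0.601 in VMHpvll.

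Of all calcium channel pores, Cacna1e made up 24.8% ± 0.843 in VMHpvlm and 20.3% ± 0.558 in VMHpvll, and Cacna1g 10.3% ± 0.758 and 17.0% ± 0.642. The ratio of Cacna1g to Cacna1e per kb was 0.380 to 0.437 in VMHpvlm and 0.814 to 0.851 in VMHpvll. Within the T-type pores, Cacna1g went from 36.7% ± 0.890 in VMHpvlm to 47.4% ± 0.289 in VMHpvll. Among alpha2delta subunits, Cacna2d1 took 63.8% ± 1.88 against 53.5% ± 1.14, and Cacna2d2 20.1% ± 1.66 against 32.0% ± 1.70.

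Beta subunits kept nearly the same mix, with Cacnb1 at 36.8% ± 0.324 and 37.4% ± 1.83, and the shares of all 4 overlapped between the regions. In the Cacng family, Cacng4 went from 34.0% ± 0.526 in VMHpvlm to 46.0% ± 1.75 in VMHpvll, and Cacng2 from 18.3% ± 0.992 to 12.8% ± 0.825. The values here are mean ± SD over 3 libraries.

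**Figure D4:**
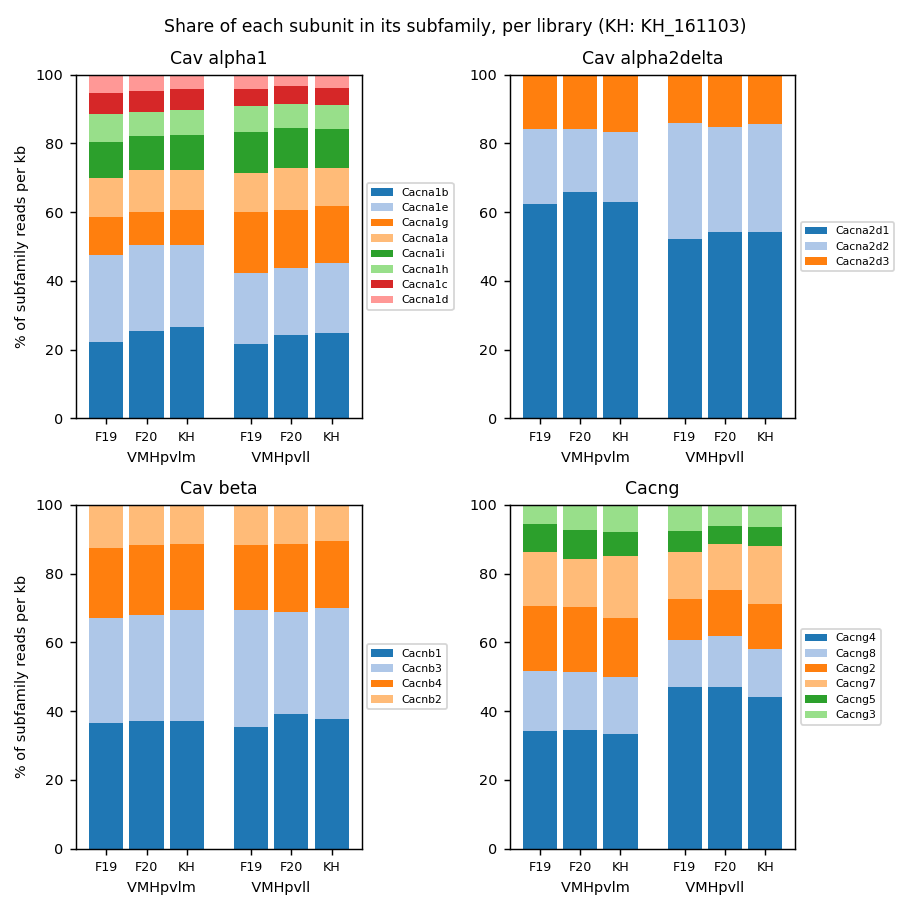
Share of each calcium channel subunit in the summed normalised reads per kb of its family, 1 bar per library, with VMHpvlm on the left and VMHpvll on the right of each panel. Subunits with a mean share under 0.5% are not drawn, so that some bars end just short of 100%, and the beta subunits show nearly the same bars in both regions while Cacna2d1, Cacna1g and Cacng4 change their share.

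Cell type markers moved with the region as well. The 8 markers of VMH neurons were present in every library, with 5 higher in VMHpvlm and 2 in VMHpvll, and with sums of 10342 to 10509 in VMHpvlm and 12072 to 12523 in VMHpvll. Nr5a1 was at 308 ± 19.5 in VMHpvlm and 31.5 ± 6.73 in VMHpvll (mean ± SD, n = 3 libraries), and Fezf1 was at 1191 ± 15.6 in VMHpvlm and 642 ± 14.3 in VMHpvll. The 2 markers higher in VMHpvll were the hormone receptor genes Pgr, at 1229 ± 98.7 in VMHpvlm and 3409.8 ± 197 in VMHpvll, and Esr1, at 513 ± 74.0 in VMHpvlm and 1490.5 ± 63.8 in VMHpvll. Slc17a6 was not called. Of 15 pan-neuronal markers, 6 were higher in VMHpvlm, with summed levels of 96309 to 103425 in VMHpvlm and 90617 to 97459 in VMHpvll. The 3 GABAergic markers were higher in VMHpvll, with sums of 798 to 1054 in VMHpvlm and 1991 to 2306 in VMHpvll. Higher in VMHpvll were also 9 of 10 oligodendrocyte markers (sums of 11972 to 13697 in VMHpvlm and 16138 to 17374 in VMHpvll), 5 of 7 markers of their precursors (1987 to 2199.8 in VMHpvlm and 2462 to 2579 in VMHpvll), 4 of 8 astrocyte markers (28873 to 31035 in VMHpvlm and 33861 to 38873 in VMHpvll) and 6 of 8 endothelial and mural markers (1459.6 to 1885 in VMHpvlm and 2270.4 to 2921 in VMHpvll). Of 7 microglia markers, 0 were called by limma, edgeR or DESeq2, and 1 had an unadjusted p below 0.05 by limma, with sums of 914 to 987 in VMHpvlm and 970.4 to 1121 in VMHpvll. DESeq2 called fewer of these markers, beside 4.46% of all genes toward VMHpvlm and 4.01% toward VMHpvll. Toward VMHpvlm it called 4 markers of VMH neurons and 3 pan-neuronal markers. Toward VMHpvll it called 2 markers of VMH neurons, 3 GABAergic, 7 oligodendrocyte, 0 precursor, 3 astrocyte and 2 endothelial and mural markers. No marker was at 0 in any library. The part of these cell types in the channel differences was not tested.

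When libraries were scaled to the 15 pan-neuronal markers, the median of all tested genes moved to -0.10 and the calls over all genes went from 1528 higher in VMHpvlm and 1377 in VMHpvll to 880 and 2691. Among the members, 11 were then higher in VMHpvlm and 9 in VMHpvll, beside 6.06% and 18.5% of all genes, and the gap between the member median and that of all genes was 0.0956, against 0.0963 before. Scn8a (log2 difference 0.37), Cacna1e (0.22), Cacna2d1 (0.63) and Cacna2d3 (0.54) were called toward VMHpvlm on that scale as well, and Scn4b (-1.80) and Cacna1g (-0.78) toward VMHpvll.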

How the data were processed

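RNA from laser-captured VMHpvlm and VMHpvll was extracted with the PicoPure kit and sequenced from stranded total RNA libraries, per the labels' protocols. The authors deposited 1 table of normalised signal: the counts of each gene, scaled by a size factor for each library. Per the submitters' processing notes, the tools were HISAT2 and featureCounts with mm10. The annotation, tool versions and strand setting are not given in the sources. Every non-zero value was a whole multiple of 1 read within 0.05 reads, so whole reads were recovered.

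The test took log2(value + 1) in limma 3.58.1 (R 4.3.3; eBayes with trend and robust), for 14522 genes with a mean of at least 10, with the pair name as a fixed block. Tests were two-sided and Benjamini-Hochberg adjusted over all tested genes. The prior degrees of freedom had a median of 39.9. Libraries were paired by the name that their titles share. Deviations from the region means correlated at 0.255, 0.244 and 0.363 between libraries of the same name and between -0.247 and 0.0067 otherwise. Deviations within a region cancel out for each gene, so positive values for the same name push the others down. The contrast is therefore partly built in. No title says that a name is 1 animal, and the p-values cover only the spread seen among these libraries, which may be technical. Libraries of a region differed beyond sampling noise (chi-square per degree of freedom 5.49 to 9.89). Alternatives included DESeq2 1.42.0 and edgeR 4.0.16, both run on the recovered reads, other scalings, filters and pseudocounts, and leaving out each pair. Steps were tested on simulated data.

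Members, subfamilies, partner lists and markers were chosen with earlier results of these data known. Every called member with a mean of at least 50 was to be given in full, with the most abundant uncalled ones, those under the filter and up to 4 called partners per list by smallest p. Values of remaining members were added. The results of some genes are not reported here. Exon lengths, overlaps and positions came from GENCODE M21 (mm10), and start-site windows from RefSeq on GRCm38.p6, which had 30 of 40 members.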

Additional observations from a re-analysis of the deposited data

How the results depend on the processing

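Without the replicate block, the genes called fell from 2905 to 1800 and the members called to 13 and 6. On the recovered reads, edgeR called 3031 genes, and DESeq2 called 1230 genes and, in VMHpvll, 5 members. A variance prior without trend or robust weighting called 422 genes, with 1 member higher in VMHpvlm and 2 in VMHpvll. The cause of these differences was not tested. Scaling to the pan-neuronal markers moved the member median to -0.00185. Leaving out 1 pair, which equals leaving out either of its libraries in the paired fit, gave 1773 to 2872 genes (1773 without KH_161103), 12 to 14 members higher in VMHpvlm, 6 to 7 higher in VMHpvll and medians of 0.0763 to 0.135. Some adjusted p-values were smaller with a pair left out, and whether the variance prior accounts for this was not tested. No called member changed direction in any of the 15 alternatives. The other alternatives kept the counts of called members within 1.5 times those reported.

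The share changing hands between regions, in percentage points of a family, was 12.1 for alpha2delta subunits (9.61 by coding length, 10.4 by the longest transcript) and 8.04 for calcium channel pores (7.17 by coding length). Without 1 pair it was 11.8 to 12.6 and 7.68 to 8.36, and for L-type pores 0.797 to 2.49 against 1.01. Depth limited the 6 members with few reads.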
